A study of Mus musculus with 8 samples.

Results

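The set holds 10 genes that govern the G1 phase of the cell cycle, of 16593 genes named on the array. They are the D-type cyclins *Ccnd1*, *Ccnd2*, and *Ccnd3*, the cyclin E gene *Ccne1*, the atypical cyclin *Ccng1*, the kinases *Cdk4* and *Cdk6*, and the kinase inhibitors *Cdkn1a*, *Cdkn1b*, and *Cdkn2c*. All probes that the platform annotation gives to these genes were taken, which yielded 20 probes of 9 genes, and no probe is annotated to *Cdk4*. Kidneys of 4 *Pkd1V/V* mice and of 4 wild-type littermates, all at postnatal day 10, were each measured on an Illumina MouseRef-8 v2.0 BeadChip. *Pkd1V/V* mice are homozygous for a hypomorphic allele of *Pkd1*, the gene most often mutated in dominant polycystic kidney disease, and the allele gives a milder disease than loss of the gene. The allele is carried in every cell of the animal, no agent was given to either group, and the RNA is that of whole kidney. The labels do not say which mutant and control shared a litter, so litter is not accounted for. The *P*-values set the difference between the genotypes against the spread between these kidneys.

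In G1, cyclin D bound to CDK4 or CDK6 and then cyclin E bound to CDK2 phosphorylate the retinoblastoma protein, which frees E2F transcription factors to switch on the genes of DNA synthesis. The inhibitors of the INK4 family, such as the p18 protein made from *Cdkn2c*, block CDK4 and CDK6. Those of the CIP/KIP family, p21 from *Cdkn1a* and p27 from *Cdkn1b*, act on CDK2 complexes and also help to assemble cyclin D with its kinase. *Cdkn1a* and *Ccng1* are both known targets of the p53 tumor suppressor. Tubular cell proliferation is a recognized feature of cystic kidneys, and many of these regulators are also controlled through protein stability, which arrays do not measure.

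Signals are background-subtracted intensities after quantile normalization, and a probe counts as detected on an array where its deposited detection *P*-value is under 0.05. Of the 20 probes, 17 probes of 8 genes were detected on at least 3 of the 8 arrays and were tested. None of these 17 was called at an adjusted *P* under 0.1 by limma, and none separated the 4 mutant from the 4 wild-type kidneys without overlap. Over the whole array 29.9% of the 14221 tested probes were called, 15.2% higher and 14.7% lower in *Pkd1V/V* kidneys, and 27.4% did not overlap between the genotypes. An unadjusted *P* under 0.05 was reached by 2 of the 17 probes, one of *Ccne1* and one of *Cdkn1b*, beside 35% of all tested probes. SAM at the *delta* of the methods and the *t*-test also called 0 member probes. Log2 fold changes, which were computed on the log2 of the signal plus 16 and run as mutant minus wild-type, lay between −0.52 and 0.40 over the 17 probes. Their median was 0.08 and their median size 0.15, where the median size over all tested probes was 0.26. With 4 kidneys per genotype, the 95% intervals of the member probes reached 0.27 to 0.57 to each side of the estimate on the log2 scale, and differences inside these intervals could not be resolved. In whole kidney, fewer cells of a type and less RNA per cell cannot be told apart.

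**Figure D1:**
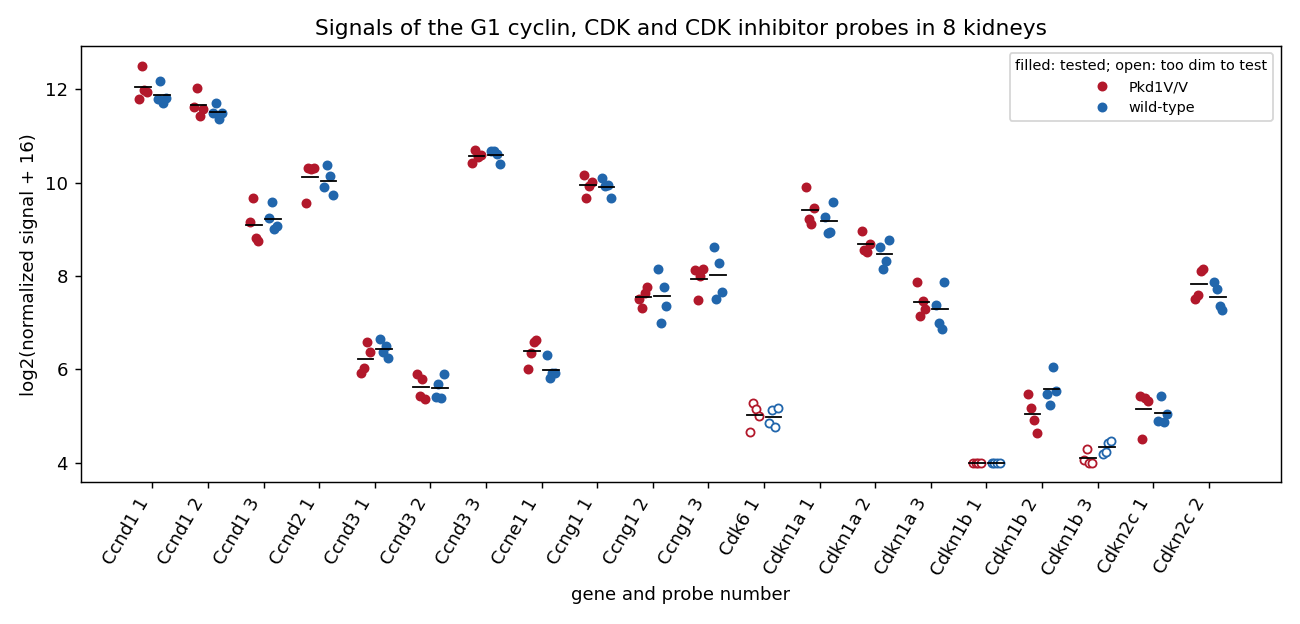
Log2 of the normalized signal plus 16 (vertical axis) for each of the 20 probes of the set (horizontal axis, gene and probe number) in 4 *Pkd1V/V* (red) and 4 wild-type (blue) kidneys, with black lines at the means. Filled points are the 17 tested probes and open points the 3 probes too dim to test, and red and blue points overlap for each tested probe, while heights of different probes cannot be compared.

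*Ccnd1*, on chromosome 7, encodes cyclin D1, which carries growth factor signals to CDK4 and CDK6. Its probe 1 had signals of 3548, 5792, 4053, and 3894 in *Pkd1V/V* kidneys 1 to 4 and of 3507, 4614, 3340, and 3569 in wild-type kidneys 1 to 4. The highest mutant and the highest control were both replicate 2, and the other kidneys of the genotypes overlapped. On the log2 scale the genotypes differed by 0.19 (SE 0.18, 95% interval −0.21 to 0.58, limma adjusted *P* = 0.494). Probe 2, at 2740 to 4129 in mutants and 2631 to 3350 in controls, gave 0.15 (adjusted *P* = 0.532), and probe 3, at 412 to 803 and 497 to 753, gave −0.13 (adjusted *P* = 0.713). Replicate 2 of each genotype was highest for all 3 probes, which over the 8 kidneys correlated at *r* of 0.67 to 0.89, as a description. These 2 arrays also had the lowest median signals before normalization, 20.9 and 21.0, against 25.3 to 34.6 on the others, and whether this bears on *Ccnd1* was not tested. For probe 1 the standard error over the beads of an array was 2.25 to 3.84% of the signal, while the SD between kidneys was 23.2% of the mean in mutants and 15.4% in controls.

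Cyclin D2, from *Ccnd2* on chromosome 6, was measured by 1 probe. Its signals were 739, 1260, 1233, and 1254 in *Pkd1V/V* kidneys 1 to 4, and 943, 1307, 1113, and 837 in wild-type kidneys 1 to 4. The first mutant kidney was the lowest of the 8, and the other mutants lay within the range of the controls. The log2 fold change was 0.08 (SE 0.21, 95% interval −0.38 to 0.54, limma adjusted *P* = 0.818), and it was −0.02 without wild-type replicate 4.

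Cyclin D3, from *Ccnd3* on chromosome 17, was measured by 3 probes. Probe 3, with an SD between kidneys of 8.06% of the mean in mutants and 8.93% in controls, read 1351, 1642, 1474, and 1522 in *Pkd1V/V* kidneys 1 to 4 and 1627, 1622, 1545, and 1335 in wild-type kidneys 1 to 4. The lowest kidney was a control and the highest a mutant, and the log2 fold change was −0.03 with the narrowest interval of the set (−0.30 to 0.23, limma adjusted *P* = 0.878). Probe 1, at signals of 44.9 to 80.2 in mutants and 59.4 to 84.1 in controls, gave −0.21 (adjusted *P* = 0.422). Probe 2, at 25.4 to 43.5 and 25.7 to 43.4, gave 0.03 (adjusted *P* = 0.927). The 3 probes did not follow each other over the 8 kidneys, with *r* between −0.77 and 0.38, and the standard error over beads was 14.4 to 23.8% of the signal for probe 2.

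*Ccne1*, on chromosome 7, encodes cyclin E1, which activates CDK2 at the end of G1 and is itself an E2F target. Its signals were 48.6, 65.6, 80.3, and 83.0 in *Pkd1V/V* kidneys 1 to 4 and 63.6, 40.5, 44.3, and 44.6 in wild-type kidneys 1 to 4. The first mutant fell among the controls and the first control among the mutants, while the remaining 3 mutants stood above every control. This gave a log2 fold change of 0.40 (SE 0.17, 95% interval 0.02 to 0.78), the largest of the set in the upward direction, with an adjusted *P* of 0.124 from limma and a two-sided exact permutation *P* of 0.0571, where 4 kidneys against 4 allow 0.0286 at the smallest. It passed the threshold without *Pkd1V/V* replicate 1 (0.53, limma adjusted *P* = 0.0419), without wild-type replicate 1 (0.51, adjusted *P* = 0.0693), without both *Pkd1V/V* replicate 1 and wild-type replicate 4 (0.51, adjusted *P* = 0.0748), and with array weights (0.54, adjusted *P* = 0.0329). Without any of the other 6 kidneys in turn it did not pass, and over all alternatives the adjusted *P* ran from 0.0329 to 0.263. The probes of other genes that followed *Ccne1* most closely over the 8 kidneys were *Usp14*, *Rsu1*, and *Prkag2*, with *r* of 0.976, 0.952, and 0.952. Of the tested probes of other named genes, 302 had an *r* above 0.8 with *Ccne1*. The followers were picked as the highest of these tested probes. A search this wide over 8 kidneys is bound to find a high *r*, so they are a description only.

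*Ccng1*, on chromosome 11, encodes cyclin G1, an atypical cyclin that p53 induces and that takes part in the feedback on p53 through MDM2. Probe 1 read 1129, 801, 960, and 1018 in *Pkd1V/V* kidneys 1 to 4 and 1074, 953, 968, and 795 in wild-type kidneys 1 to 4. The ranges of the genotypes overlapped, and the log2 fold change was 0.04 (95% interval −0.28 to 0.36, limma adjusted *P* = 0.873). Probe 2 gave −0.01, with signals of 143 to 201 in mutants and 112 to 267 in controls, and probe 3 gave −0.07, with 163 to 266 and 166 to 375. The controls were spread more widely than the mutants for these 2 probes, with an SD of 37.0% against 14.3% of the mean for probe 2 and of 38.2% against 20.6% for probe 3. Wild-type replicate 1 was the highest kidney and *Pkd1V/V* replicate 2 the lowest mutant for both, and the sign of each of the 3 estimates turned when single kidneys were left out.

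**Figure D2:**
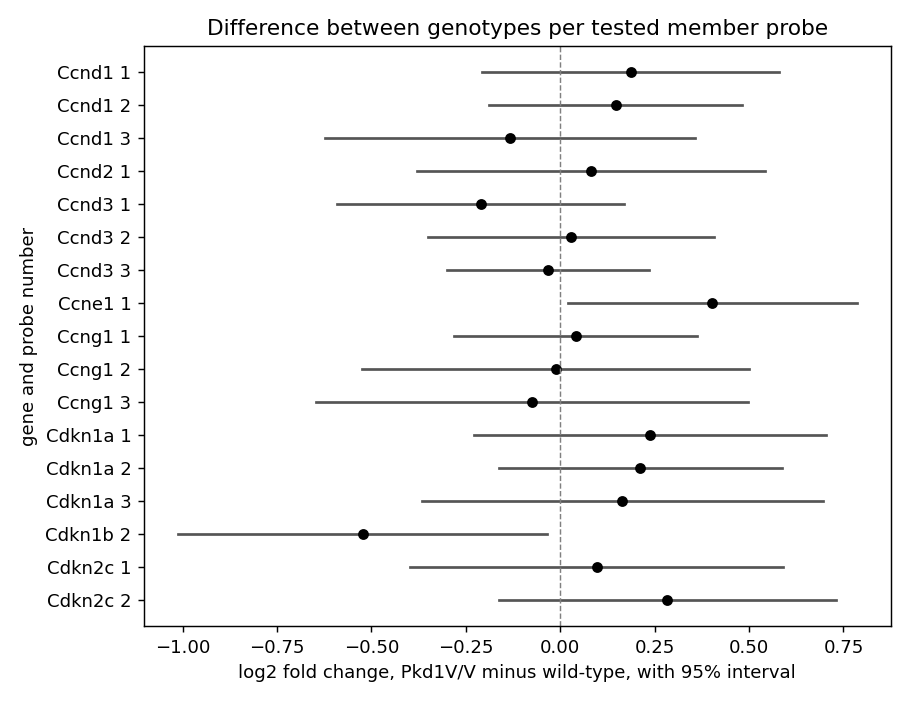
Log2 fold change of *Pkd1V/V* minus wild-type (horizontal axis) for the 17 tested probes (vertical axis, gene and probe number), with points at the estimates and lines for the 95% intervals, 4 kidneys per genotype. Only the intervals of *Ccne1* (0.02 to 0.78) and of *Cdkn1b* probe 2 (−1.01 to −0.03) leave out 0, neither probe passed the adjusted threshold, and *Cdkn1b* probe 2 was detected in 1 mutant and 3 controls.

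Of the D-cyclin kinases, *Cdk6* on chromosome 5 had 1 dim probe. Its signals were 9.4, 23.0, 19.4, and 16 in *Pkd1V/V* kidneys 1 to 4 and 12.8, 18.9, 11.2, and 19.8 in wild-type kidneys 1 to 4. It was above background in *Pkd1V/V* replicates 2 and 3 and in no control, at detection *P*-values of 0.0401 and 0.0464 in those mutants, and it was therefore not tested and no fold is given.

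*Cdkn1a*, on chromosome 17, encodes p21, which halts cells at G1 after DNA damage and is the best known target of p53. Probe 1 had signals of 938, 581, 534, and 682 in *Pkd1V/V* kidneys 1 to 4 and of 595, 468, 478, and 755 in wild-type kidneys 1 to 4. One mutant stood above all controls and one control above the other mutants. On the log2 scale the genotypes differed by 0.24 (SE 0.21, 95% interval −0.23 to 0.71, limma adjusted *P* = 0.461). Probe 2, at 351 to 485 in mutants and 268 to 422 in controls, gave 0.21 (adjusted *P* = 0.413), and probe 3, at 126 to 219 and 101 to 218, gave 0.16 (adjusted *P* = 0.669). The 3 probes moved together over the kidneys, with *r* of 0.87 to 0.95, and each of them was highest in *Pkd1V/V* replicate 1 among mutants and in wild-type replicate 4 among controls. These 2 kidneys also stood highest on the second principal component of all tested probes, at 24.6 and 39.0, where the others lay between −21.9 and −0.09. *Pkd1V/V* replicate 1 had the highest summed signal of macrophage and leukocyte markers, 14900 against 3910 to 7450 in the other mutants. Wild-type replicate 4 had the highest summed signal of liver markers, 43200 against 8560 to 10600 in the other controls. The part of these transcripts in the *Cdkn1a* signals was not tested.

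**Figure D3:**
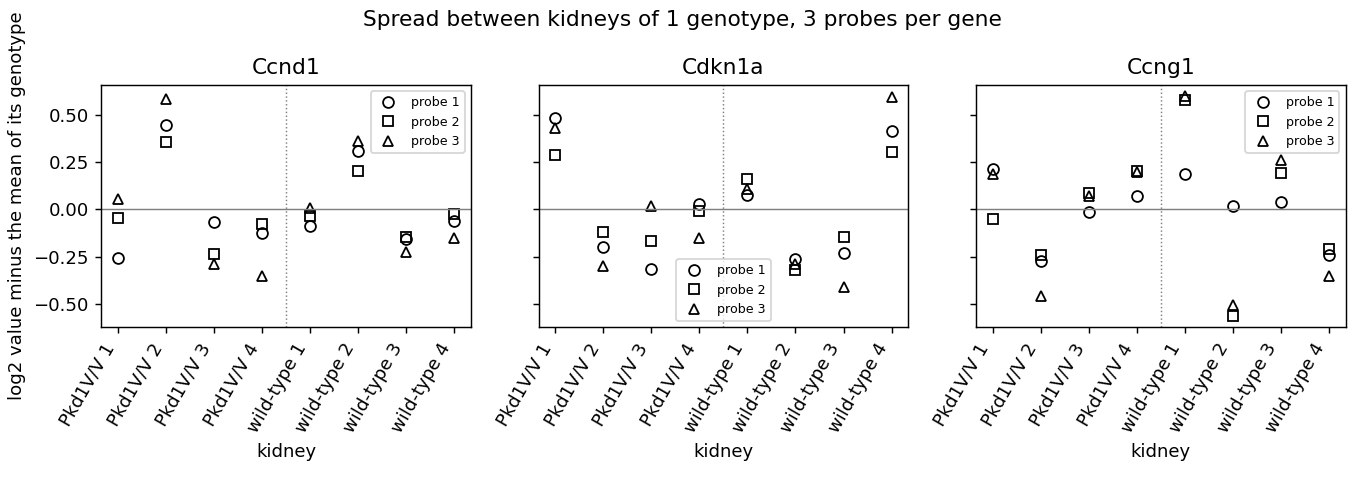
Log2 value of each kidney minus the mean of its genotype (vertical axis) in the 8 kidneys (horizontal axis) for the 3 probes each of *Ccnd1*, *Cdkn1a*, and *Ccng1* (circles, squares, and triangles), with a dotted line between the genotypes. The probes of a gene lay close together within most kidneys, apart from *Ccng1* probe 1 in wild-type replicates 1 and 2, with *Ccnd1* highest in replicate 2 of both genotypes and *Cdkn1a* highest in *Pkd1V/V* replicate 1 and wild-type replicate 4.

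The *Cdkn1a* locus is shown at the sequence level because p53 targets form one of the companion lists below. Windows of the 250 bases before each start site of RefSeq genes on GRCm38.p6 were searched on both strands. Of the members, 8 genes with 11 windows were matched, and *Ccnd1* and *Ccnd2* were not. The paired core of the p53 element, NNNCATGNNNNNNCATGNNN, stood in 156 of 32851 windows (0.475%) and in 1 member window, that before a start site of *Cdkn1a* at position 29090979 of chromosome 17 on the plus strand. In the stretch chr17:29090888-29090978, which ends at the base before that start site, capitals mark the match, whose first base lies 51 bases upstream.
Cdkn1a: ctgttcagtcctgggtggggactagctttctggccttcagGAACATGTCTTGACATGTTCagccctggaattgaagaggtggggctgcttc
The E2F motif, searched as TTTCCCGC or TTTGGCGC, stood in 427 windows (1.3%) and in 0 member windows. A match is a description of letters, and nothing about a factor follows from either search.

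*Cdkn1b*, on chromosome 6, encodes p27, which holds resting cells in G1. Its probes 1 and 3 were not well above background on any array, with signals of −18.9 to −8.59 for probe 1 and −9.06 to 6.19 for probe 3 over the 8 kidneys. Probe 2 read 28.6, 19.8, 14.3, and 8.84 in *Pkd1V/V* kidneys 1 to 4 and 28.6, 21.5, 50.5, and 30.2 in wild-type kidneys 1 to 4. The first mutant equalled a control, and the other 3 mutants lay below all controls. It was detected in 1 of 4 mutants and 3 of 4 controls, so that it entered the test through the controls alone and 3 of the mutant signals were not above background. Its log2 fold change of −0.52 (SE 0.22, limma adjusted *P* = 0.119) did not pass, was −0.93 without the offset of 16, and is given as a description. The threshold was passed without *Pkd1V/V* replicate 1 (−0.67, limma adjusted *P* = 0.0550), without wild-type replicate 2 (−0.64, adjusted *P* = 0.0859), and with array weights (−0.72, adjusted *P* = 0.0341), and over all alternatives the adjusted *P* ran from 0.0341 to 0.276. Its closest followers over the 8 kidneys were *Srsf5*, *Tbxas1*, and *Timm44*, with *r* of 0.966, 0.953, and 0.946. Of the tested probes of other named genes, 72 had an *r* above 0.8 with *Cdkn1b* probe 2. These followers were also picked as the highest of that search, for a probe near background, and are a description only.

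*Cdkn2c*, on chromosome 4, encodes p18, an INK4 inhibitor of CDK4 and CDK6. Its bright probe 2 had signals of 165, 178, 260, and 267 in *Pkd1V/V* kidneys 1 to 4 and of 219, 194, 148, and 138 in wild-type kidneys 1 to 4. Mutants 3 and 4 stood above all controls, and mutants 1 and 2 fell among them. This gave a log2 fold change of 0.28 (SE 0.20, 95% interval −0.16 to 0.73, limma adjusted *P* = 0.354), and with array weights it was 0.44 and passed (adjusted *P* = 0.0882). Probe 1, detected in 3 mutants and 1 control, read 6.76 to 27.2 in mutants and 13.3 to 27.0 in controls and gave 0.10 (adjusted *P* = 0.795).

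The INK4 and CIP/KIP families hold 4 further genes, and 2 of them changed, in opposite directions. Of the 4 tested probes 1 rose and 1 fell, beside 15.2% and 14.7% of all tested probes. *Cdkn2b*, which encodes the INK4 inhibitor p15 and is known as a target of TGF-β signaling, had signals of 520, 338, 273, and 400 in *Pkd1V/V* kidneys 1 to 4 and of 92.1, 156, 128, and 144 in wild-type kidneys 1 to 4. All mutants lay above all controls, and *Cdkn2b* was 2.70-fold higher in *Pkd1V/V* kidneys (log2 fold change 1.43, SE 0.21, limma adjusted *P* = 0.00135). *Cdkn1c*, which encodes the CIP/KIP inhibitor p57, had signals of 2427, 4853, 4333, and 3548 in mutants 1 to 4 and of 6648, 9892, 8997, and 7316 in controls 1 to 4. All mutants lay below all controls, and the log2 fold change was −1.14 (SE 0.22, limma adjusted *P* = 0.00548). *Cdkn2d* and *Cdkn2a* had log2 fold changes of 0.20 and 0.24 and did not pass (adjusted *P* = 0.443 and 0.528). Both calls held without any single kidney, with adjusted *P* up to 0.00564 for *Cdkn2b* and up to 0.0198 for *Cdkn1c*, and the count of risers was 2 without *Pkd1V/V* replicate 1 or wild-type replicate 3. Podocytes are known to express *Cdkn1c*, and the summed signal of the podocyte markers that were tested was 1010 to 1370 in mutants and 1560 to 2500 in controls, with 1 of 2 probes lower. The part of cell numbers in the *Cdkn1c* difference was not tested.

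**Figure D4:**
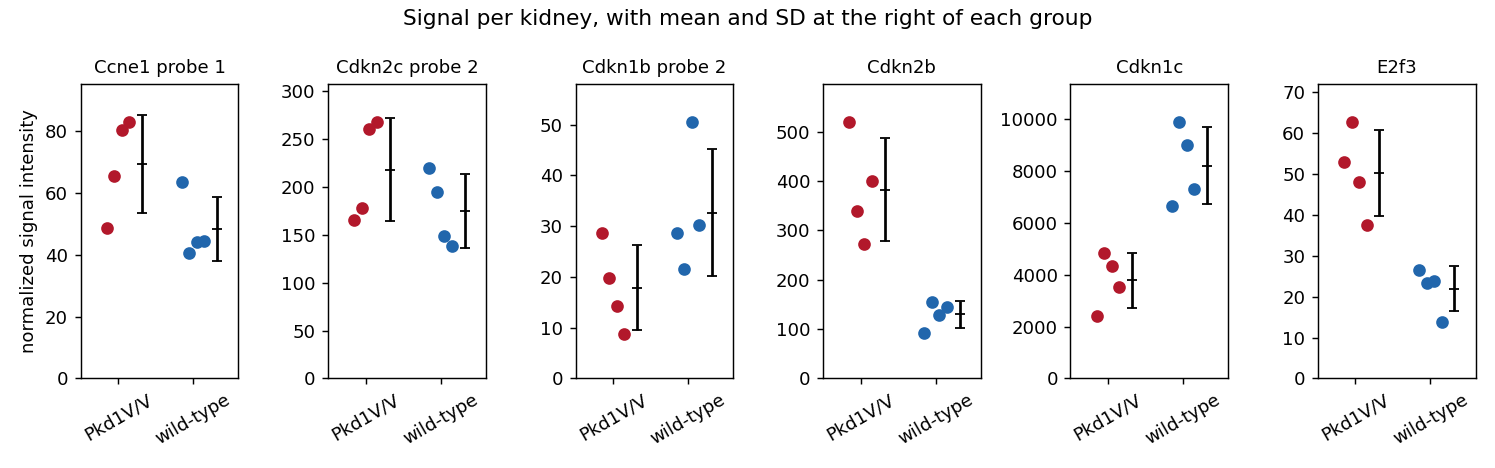
Normalized signal intensity (vertical axes, from 0, each with its own scale) of 6 probes in 4 *Pkd1V/V* (red) and 4 wild-type (blue) kidneys, with the mean and SD beside each group. The genotypes overlapped for *Ccne1*, *Cdkn2c* probe 2, and *Cdkn1b* probe 2, and did not overlap for *Cdkn2b*, *Cdkn1c*, and *E2f3*.

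Among cyclin partners and activators of CDK2, *Mnat1*, the assembly factor of the CDK-activating kinase, was higher in *Pkd1V/V* kidneys. In all, 2 of 8 tested probes of this list rose and 0 fell, beside 15.2% and 14.7% of all tested probes, with a median log2 fold change of 0.22, and both rising probes belong to *Mnat1*. The stronger *Mnat1* probe gave 0.42 (SE 0.13, limma adjusted *P* = 0.0476), a 1.34-fold difference. Its call was lost without any one of *Pkd1V/V* replicates 1, 3, and 4 and wild-type replicates 2 and 4, with adjusted *P* up to 0.114. The 4 probes of *Cdk2* had log2 fold changes between −0.31 and 0.15, and *Ccne2*, the second cyclin E gene, had 0.30 (adjusted *P* = 0.693), and none of these passed.

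Of the pocket proteins, E2F factors, and their partners, 3 of 17 tested probes rose and 1 fell, beside 15.2% and 14.7% of all tested probes, and the median log2 fold change was 0.15. *E2f3*, an activator of S-phase genes, had signals of 52.8, 62.6, 47.8, and 37.3 in *Pkd1V/V* kidneys 1 to 4 and of 26.4, 23.4, 23.8, and 13.9 in wild-type kidneys 1 to 4. All mutants lay above all controls (log2 fold change 0.80, SE 0.16, limma adjusted *P* = 0.00602). The probe was dim, and it was detected in 4 mutants and 3 controls. *E2f4*, a repressor in resting cells, rose by 0.45 on the log2 scale (adjusted *P* = 0.0200), with signals of 318 to 346 in mutants and 207 to 267 in controls. *E2f1*, a further activator, rose by 0.54 (adjusted *P* = 0.0919), and *E2f5*, a further repressor, had a log2 fold change of −0.30 and fell (adjusted *P* = 0.0742). The calls of *E2f3* and *E2f4* held without any single kidney, and 5 probes rose without wild-type replicate 2. That of *E2f1* was lost without any kidney but wild-type replicate 2 (adjusted *P* up to 0.221), and that of *E2f5* without any kidney but *Pkd1V/V* replicate 2 and wild-type replicate 1 (adjusted *P* up to 0.171). The 2 probes of *Rb1*, the retinoblastoma gene, gave −0.13 and −0.09 (adjusted *P* = 0.628 and 0.653).

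Of the genes that E2F factors are known to drive in S phase, most of those tested had a rising probe. Of 22 tested probes, 12 probes of 11 genes rose and 0 fell, 21 had a log2 fold change above 0, and the median was 0.45, beside a share of 15.2% of all tested probes that rose and an overall median of 0.01. *Rrm1*, the large subunit of ribonucleotide reductase, had signals of 544, 608, 853, and 721 in *Pkd1V/V* kidneys 1 to 4 and of 484, 445, 359, and 338 in wild-type kidneys 1 to 4, so that all mutants lay above all controls. Its log2 fold change was 0.72 (SE 0.17, limma adjusted *P* = 0.0151). *Mcm5*, a subunit of the replicative helicase, rose by 0.70 (adjusted *P* = 0.0170), and *Uhrf1*, which maintains DNA methylation behind the replication fork, rose by 0.79 (adjusted *P* = 0.0235). The genotypes overlapped for both. *Pkd1V/V* replicate 1 lay below wild-type replicate 2, at 760 against 779 for *Mcm5* and at 1249 against 1284 for *Uhrf1*. The other genes with a rising probe were *Mcm2*, *Mcm3*, *Mcm4*, *Mcm6*, *Mcm7*, *Rrm2*, *Cdc6*, and *Cdt1*, named after their values were seen. *Tyms*, *Tk1*, and *Pcna* did not pass with any probe. The count of 12 was 6 without wild-type replicate 4 and 7 without any one of *Pkd1V/V* replicate 3, wild-type replicate 1, and wild-type replicate 3.

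Of the list of mitotic cyclins and kinases, *Plk1* and *Top2a* rose. Its cyclin genes *Ccnb1* and *Ccnb2* had no tested probe, nor had *Aurkb*, *Bub1*, and *Mki67*. Of 12 tested probes, 2 rose and 0 fell, where 15.2% of all tested probes rose, so that this count lay near that of the whole array. All 12 had a log2 fold change above 0, with a median of 0.48. *Plk1*, a kinase of mitotic entry, had signals of 104, 214, 184, and 183 in mutants 1 to 4 and of 122, 16.9, 61.1, and 13.2 in controls 1 to 4. It was detected in 4 mutants and in 2 controls, so that the mutants alone met the detection filter. The lowest mutant lay below the highest control, and the log2 fold change was 1.69 (SE 0.46). Its limma adjusted *P* of 0.0254 is given as a description. *Top2a*, the topoisomerase that untangles replicated DNA, rose by 0.73 (adjusted *P* = 0.0593), and its call was lost without any one of replicates 3 and 4 of either genotype (adjusted *P* up to 0.138). The count of 2 ranged from 1 to 5 over the kidneys left out in turn, with 5 without wild-type replicate 1 and 1 without replicate 3 or 4 of either genotype. It was 9 with array weights and 0 of 16 without the detection filter, where *Plk1* and *Top2a* had adjusted *P* of 0.119 and 0.177. The count was 1 of 11 with detection required on all 8 arrays.

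Beside *Cdkn1a* and *Ccng1*, the list of p53 and its targets had 9 of 26 tested probes that rose, in 7 genes, and 1 that fell, beside 15.2% and 14.7% of all tested probes. The 9 include a *Pmaip1* probe, and the 1 is a *Sesn1* probe, that met the detection filter through the brighter genotype alone. With detection required on all 8 arrays, 8 of 22 probes rose and 0 fell. Over the 26 probes of the main test, the log2 fold change was above 0 for 14 and below 0 for 12, with a median of 0.13. The p53 gene *Trp53* itself had no tested probe, nor had *Mdm4*, *Bax*, *Perp*, *Btg2*, *Aen*, and *Ckap2*. *Pmaip1*, which encodes the pro-death protein NOXA, had signals of 103, 57.0, 67.1, and 70.1 in *Pkd1V/V* kidneys 1 to 4 and was not well above background in any control. It was at least 2.40-fold higher in mutants. The bound takes, on each control array, the higher of the probe's signal and the lowest signal above background. This probe was detected in 4 mutants and 0 controls, so that it entered the test through the mutants alone. Its limma adjusted *P* of 0.000352 is given as a description. A second *Pmaip1* probe, detected in all 8 kidneys, had a log2 fold change of 1.45 (adjusted *P* = 0.00219). *Phlda3*, a repressor of AKT signaling, had signals of 439 to 503 in mutants and 252 to 308 in controls and rose by 0.75 (adjusted *P* = 0.00158). *Plk2*, a stress-induced kinase, rose by 0.67 (adjusted *P* = 0.0289), with signals of 300 to 608 in mutants and 248 to 270 in controls. A probe of *Sesn1*, a sestrin, had a log2 fold change of −0.70 and fell (limma adjusted *P* = 0.0587). It was detected in 2 mutants and 4 controls, so that the controls alone met the detection filter. This *P* is given as a description. The other *Sesn1* probe gave −0.20 (adjusted *P* = 0.446). The call was lost without any one of *Pkd1V/V* replicates 2 and 4 and wild-type replicates 1, 3, and 4. The 3 probes of *Mdm2*, the ligase that p53 induces to limit itself, gave log2 fold changes between −0.25 and −0.08, and none passed. The count of 9 was 5 without wild-type replicate 4 and 5 of 42 without the detection filter.

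Of the ubiquitin ligases that degrade G1 regulators, 2 of 11 tested probes rose and 0 fell, where 15.2% of all tested probes rose, and the median log2 fold change was 0.23. *Ddb1*, an adaptor of the CUL4 ligase, had signals of 574 to 708 in mutants and 445 to 470 in controls and rose by 0.51 (limma adjusted *P* = 0.00914). *Fbxo4*, an F-box protein linked to the turnover of cyclin D1, had signals of 435 to 535 and 292 to 403 and rose by 0.46 (adjusted *P* = 0.0339). The 2 probes of *Skp2*, which directs the turnover of p27, gave 0.41 and 0.23 (adjusted *P* = 0.270 and 0.517). Of the atypical cyclins other than *Ccng1*, 0 of 5 tested probes passed, beside 29.9% of all tested probes, and the median was −0.06.

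**Figure D5:**
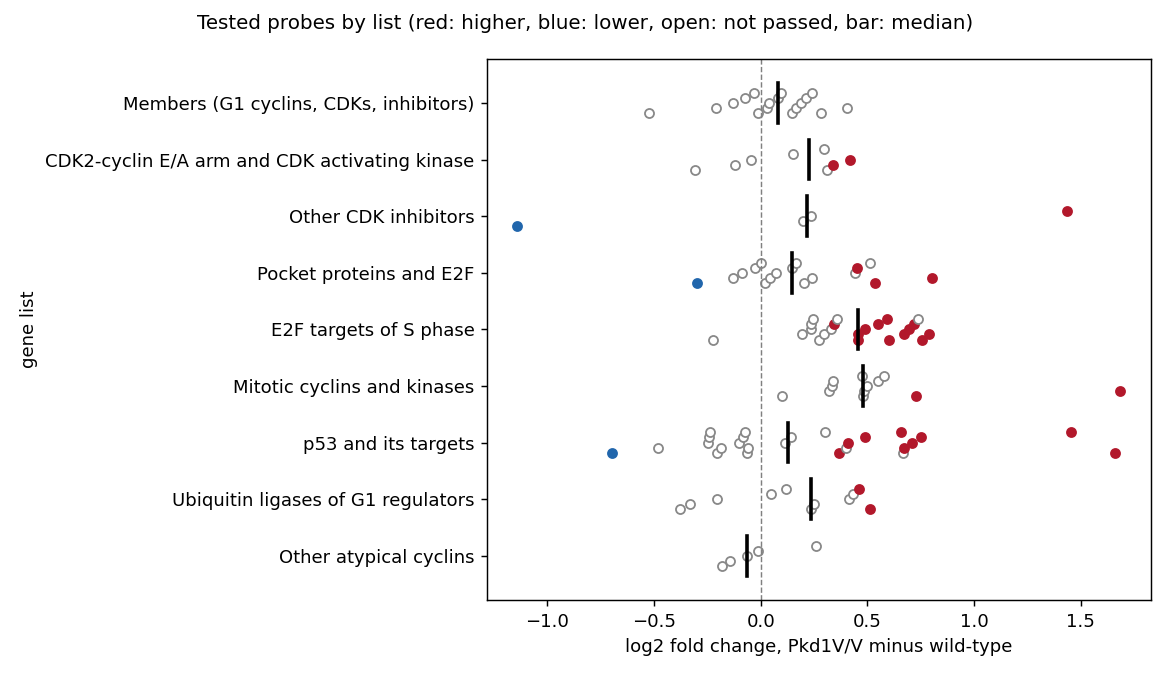
Log2 fold change of *Pkd1V/V* minus wild-type (horizontal axis) for each tested probe of the members and of the 8 companion lists (vertical axis), where red points passed the threshold higher, blue points passed it lower, open points did not pass, and black bars are medians. The 17 member probes are all open with a median of 0.08, while 12 of 22 S-phase probes are red with a median of 0.45.

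Markers of several kidney cell types differed between the genotypes. Of the macrophage and leukocyte markers 8 of 8 tested probes rose, with summed signals of 3910 to 14900 in *Pkd1V/V* and 1520 to 1870 in wild-type kidneys. Of the fibroblast probes 8 of 11 rose and of the tubular injury probes 6 of 6, beside 15.2% of all tested probes. The *Havcr1* and *Sox9* probes of tubular injury were detected in 4 mutants and 0 controls. They entered the test through the mutants alone, and their calls are given as a description. Of the proximal tubule markers 6 of 6 fell, with summed signals of 8950 to 16700 and 35800 to 43900. So did 7 of 9 probes of the thick ascending limb and 5 of 8 of endothelium, beside 14.7% of all tested probes. The liver markers *Ttr*, *Afp*, *Serpina1b*, and *Apoa2* were lower in mutants with 5 of 5 tested probes, beside the same 14.7% of all tested probes. Their summed signals were 1740 to 3870 in mutants and 8560 to 43200 in controls. *Ttr* made up much of these sums, with means of 2847 in mutants and 9973 in controls. For *Afp*, *Serpina1b*, and *Apoa2* the SD between controls exceeded their mean. The value of 43200 is that of wild-type replicate 4 alone, and the other controls lay at 8560 to 10600. The part of these shifts in the differences of the companion lists was not tested. The *Pkd1* probe read 64.2 to 136 in mutants and 85.4 to 147 in controls and did not differ beyond the spread (log2 fold change −0.20, limma adjusted *P* = 0.557), and it does not check the labels of a hypomorphic allele. Between 51.8 and 54.3% of probes were detected on each array.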

How the data were processed

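The authors deposited signal intensities of 25697 probes for 8 arrays, which were background-subtracted but not normalized between arrays, with a detection p-value, a bead number, and a bead standard error for each probe. A second table of signal intensities had been quantile-normalized, as its nearly identical column distributions show, and served as an alternative. The pellet of the homogenized kidney was the source of RNA, and the software that exported the tables is not given in the sources used here. The array code of *Pkd1V/V* replicate 4 is the same in the labels and in the deposited tables but differs in the study's supplementary description, and the labels were followed.

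In R 4.3.3, quantile normalization was followed by a floor of 0 and by log2 after adding 16. Testing required a detection p-value below 0.05 on 3 or more of the 8 arrays. Genotypes were compared per probe with lmFit and eBayes of limma 3.58.1, with Benjamini-Hochberg adjustment over 14221 probes and a threshold of 0.1. Single values were compared with a two-sided exact permutation test over 70 assignments. Signals were read by their spread between kidneys, and the number of arrays limits the precision. The procedure was tested on simulated data. Symbols came from the platform annotation, updated by gene identifier for 23962 probes, and 1719 probes have none. Start sites and sequences came from RefSeq tables of GRCm38.p6.

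The members and lists were chosen with earlier results of these data known. The text names every member, up to 3 called genes per direction of each companion list by smallest adjusted *P*, and the 3 closest followers of the 2 member probes with the smallest adjusted *P* in each direction, while any other gene was named with its value in view. Alternatives were another offset or none, cyclic loess, median scaling, neqc, the authors' table, other filters, 1 value per gene, a threshold of 0.05, kidneys left out, the replicate block, array weights with a trend, the methods' *t*-test, and SAM with a *delta* of 1, written anew.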

Additional observations from a re-analysis of the deposited data

Results flagged for a closer look

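Among 70 groups of 4 kidneys, each 1 probe in 1 genotype, a kidney stood far from the other 3 in 3 groups, and chance gives such a gap in about 1 in 20 groups. *Ccnd2* had a signal of 739 in *Pkd1V/V* replicate 1, below 1230 to 1260 in the other mutants. *Cdkn2c* probe 1 had 6.76 in *Pkd1V/V* replicate 2, below 23.9 to 27.2 in the other mutants. *Pmaip1* had 20.4 in wild-type replicate 2, above 9.51 to 10.2 in the other controls, all of them not well above background.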

How the results depend on the processing

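Of 379 recomputed values of single member probes, 354 kept their direction and their side of the threshold, 8 passed it, 17 changed sign, and 0 of the 17 were called. Over the kidneys left out in turn, 0 to 1 member probes were called higher and 0 to 1 lower, and 6 to 13 probes of the S-phase list higher. The log2 fold change then ranged from −0.019 to 0.27 for *Ccnd2*, −0.063 to 0.13 for *Ccnd3* probe 2, −0.10 to 0.015 for *Ccnd3* probe 3, −0.039 to 0.13 for *Ccng1* probe 1, −0.20 to 0.18 for *Ccng1* probe 2, and −0.24 to 0.13 for *Ccng1* probe 3. Without both wild-type replicate 4 and *Pkd1V/V* replicate 1, 1 member probe was called higher and *Ccng1* probe 1 gave −0.11. With array weights and a trend, 2 member probes were called higher and 1 lower, and *Ccng1* probe 2 gave 0.058. For these the cause was not tested. The S-phase count was 6 without the detection filter, where more probes were tested, and 7 at a threshold of 0.05. With the replicate block, 1871 probes were called higher, 1879 lower, and 0 member probes, but same-numbered kidneys did not deviate together, with *r* of −0.25, 0.32, 0.21, and −0.28. Over all alternatives, 1626 to 2756 probes were called higher and 1614 to 2580 lower, without a move by over 1.5 times. Without the offset, the log2 fold change was −0.93 for *Cdkn1b* probe 2, 1.21 for *E2f3*, 2.63 for *Pmaip1*, and −1.17 for *Sesn1*. Signal over background limits *Cdk6*, *Cdkn1b*, and *Cdkn2c* probe 1. It also limits *E2f3*, *Plk1*, and the first named probes of *Pmaip1* and *Sesn1*, which were not detected on every array.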
